A study of Arabidopsis thaliana with 16 samples.

Results

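Khib, the 2-hydroxyisobutyrylation of histone lysines, was set side by side in sant-null and hda9 seedlings of Arabidopsis thaliana, with no step through the wild type. Of 32548 genes in the deposited tables, 22945 entered this comparison (70.5%): those whose start and end lie at least 1000 bp apart and whose value was at least 1 RPKM (reads scaled to gene length and library size) in both mutants. For each gene the log2 ratio of (RPKM + 1) in sant-null over hda9 was taken and centred on the median of these genes, so that 0 is the ratio of the median gene. The sant-null group is labelled quadruple mutants, and the labels do not name its loci. The hda9 group is a T-DNA insertion line, hda6 is an EMS line and Col-0 is the wild type, and the last pair serve only as points of comparison here. All 4 genotypes were whole seedlings, 12 days old, grown untreated on 1/2 MS plates at 22 °C under long days (16 h light, 8 h dark), and formaldehyde at 1% was the fixative over 15 min. Each genotype had 2 chromatin immunoprecipitation (ChIP) libraries made with the anti-Khib antibody PTM-802 and 2 input libraries, but the gene tables hold 1 value per genotype, so no difference given here has a replicate check and no p-value was computed. Whole seedlings pool many cell types, so a lower Khib value in fewer cells and a lower value per cell cannot be told apart.

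Khib is an acyl group on lysine that is chemically close to acetylation and crotonylation and is mostly found over transcribed genes. HDA6 and HDA9 are class I histone deacetylases of the RPD3 type, and enzymes of this class can also remove longer acyl groups. HDA9 works in complexes with SANT-domain proteins such as POWERDRESS, and in Arabidopsis it is known for restraining flowering, stress genes and seed genes in seedlings. SANT domains are short folds found in many chromatin complexes, where they bind histone tails or deacetylases. A direct comparison of a SANT mutant with a deacetylase mutant asks where in the genome their Khib maps part.

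The hda9 table stood apart from the other 3 before any ratio was taken. The reads recovered from the RPKM steps correspond to depths of 12.0 M reads in sant-null, 38.8 M in hda9, 16.8 M in hda6 and 18.6 M in Col-0, where M is 1000000. A median gene held 235 reads in sant-null and 813 reads in hda9. Levels ran from 2.42 RPKM at the 5th percentile to 20.1 RPKM at the 95th in sant-null, an 8.32-fold span, and from 4.26 to 15.42 RPKM in hda9, a 3.62-fold span. The same span was 13.1-fold in hda6 and 12.0-fold in Col-0. Genes of hda9 therefore lay closer together in Khib than genes of any other genotype, with sant-null next. Input was not used here, and the part of depth or background in this narrower range was not tested.

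The ranking of genes was much alike in both mutants. Across the 22945 genes, Spearman's rho between the levels of sant-null and hda9 was 0.92, as a description over genes that share both tables. The median ratio of sant-null to hda9 before centring was 0.910 in RPKM, or -0.12 on the log2 (RPKM + 1) scale. After centring, the log2 ratio had a standard deviation of 0.39 over genes. The median counting error per gene was 0.107, for a log2 ratio of reads without the added 1, so the scales differ. The middle 50% of genes lay between -0.25 and 0.24, and the outer 1% on each side lay below -1.02 or above 0.91. Called here are genes at least 1.5-fold from the median gene on this scale. Higher in sant-null than in hda9 were 1229 genes (5.36%), and lower were 1676 (7.3%). A 2-fold difference was reached by 153 genes upward and 256 downward. For each of the genes past 1.5-fold the exact 95% interval of the fold, which covers counting error only, left out the fold of the median gene. These intervals come from the same reads that gave the calls, so they are no separate check of them.

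The split between higher and lower genes moved with the scaling. Higher genes made up 42.3% of the calls in the comparison as centred. Without centring the counts were 638 higher and 2690 lower, of which 19.2% were higher. After quantile normalization of both columns they were 472 higher and 358 lower, or 56.9% higher. With the running median over the mean level of both mutants removed they were 549 higher (2.39%) and 236 lower (1.03%), or 69.9% higher. With the running median over the Col-0 level removed they were 268 higher (1.17%) and 171 lower (0.745%), or 61.0% higher.

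**Figure D1:**
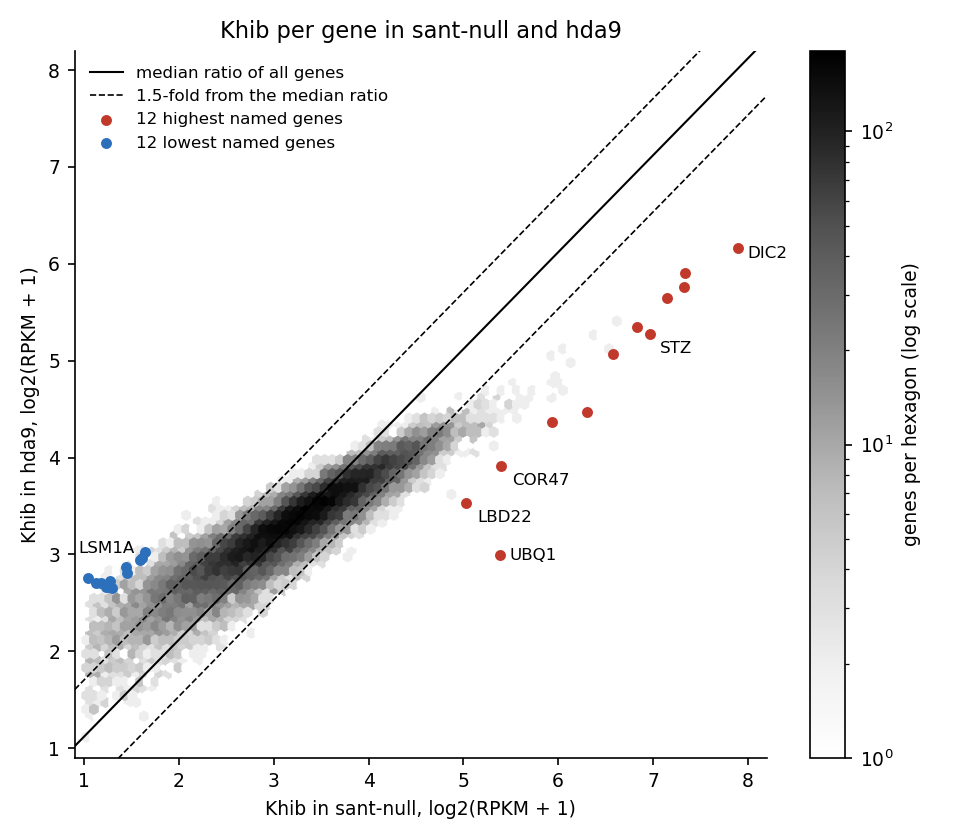
Khib per gene in sant-null (horizontal axis) and hda9 (vertical axis), both as log2(RPKM + 1), with the 22945 genes as hexagons shaded by their number; 10 genes lie beyond the axes. The solid line is the median ratio and the dashed lines are 1.5-fold from it: the cloud is flatter than the solid line, so that genes of low Khib lie on the hda9 side and genes of high Khib on the sant-null side, and UBQ1 and LBD22 lie off the cloud.

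Which mutant was higher went with how high a gene's Khib value was in the wild type. Genes higher in sant-null had median levels of 22.0 RPKM in sant-null, 14.2 RPKM in hda9, 25.5 RPKM in hda6 and 22.6 RPKM in Col-0. Genes lower in sant-null had 2.57 RPKM in sant-null, 5.76 RPKM in hda9, 1.99 RPKM in hda6 and 2.03 RPKM in Col-0. Relative to the median gene, strongly marked genes thus had higher values in sant-null than in hda9, and weakly marked genes had lower ones. RPKM is scaled to library size, so a change of Khib over all genes together cannot be seen here. When the genes were ranked by Col-0, the median log2 ratio climbed at every decile, from -0.57 in the lowest to 0.53 in the highest. Col-0 is no part of the ratio, but the climb is no separate result. Levels spanned 3.62-fold in hda9 against 8.32-fold in sant-null, and both mutants ranked genes much alike. Their ratio therefore rises with any level that ranks genes in a similar order. In the lowest Col-0 decile 1115 of 2295 genes (48.6%) were lower in sant-null and 1 was higher. In the highest decile 919 of 2295 genes (40.0%) were higher and 3 were lower. Over genes, Spearman's rho of the ratio was 0.82 with the Col-0 level and 0.84 with the hda6 level. Removing the trend with the Col-0 level left a standard deviation of 0.23 of the 0.39.

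**Figure D2:**
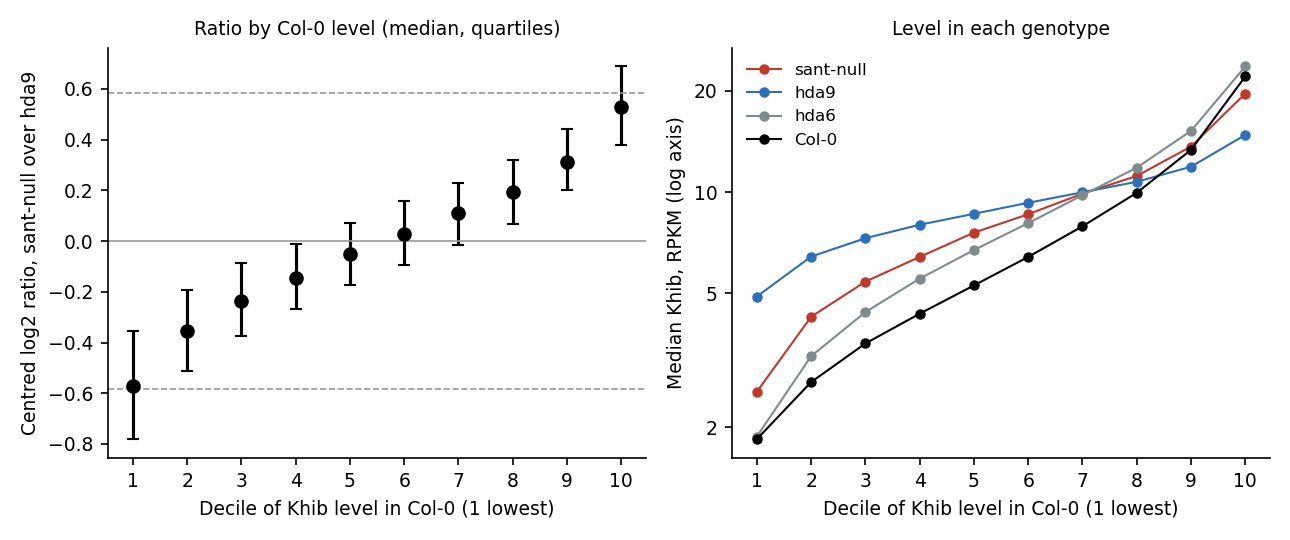
Left, the centred log2 ratio of sant-null over hda9 in deciles of the Khib level in Col-0, as medians with quartiles as bars; the dashed lines are at 1.5-fold. Right, the median RPKM of each genotype in the same deciles on a log axis: hda9 runs flattest, from 4.89 to 14.8 RPKM, against 2.55 to 19.6 RPKM in sant-null, 1.87 to 23.7 RPKM in hda6 and 1.84 to 22.1 RPKM in Col-0.

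Col-0 and hda6 were then used to see which of the mutants lay apart at the called genes, with each genotype centred on its own median. This reading was chosen after the values were seen. Of the 1229 genes higher in sant-null, 1196 (97.3%) had a mean of Col-0 and hda6 nearer to sant-null than to hda9. Of the 1676 genes lower in sant-null, 1525 (91.0%) did so, and of the 20040 genes called in neither direction 14702 (73.4%) did so. At the higher genes the median log2 distance from the mean of Col-0 and hda6 was -0.38 in sant-null and -1.16 in hda9. At the lower genes it was -0.04 in sant-null and 0.75 in hda9. The sant-null value thus followed the other genotypes more closely than hda9 did in both sets. A stricter count asked for 1 genotype at least 1.5-fold beyond the other 3, with these 3 within 1.5-fold of each other. By it hda9 stood alone below at 656 of the higher genes and alone above at 616 of the lower genes. At the 20040 genes called in neither direction, hda9 stood alone below at 49, and it never stood alone above. This count needs a 1.5-fold gap between sant-null and hda9, as the calls do, and the narrower range of hda9 enters it. It is thus no separate check of the calls. By the same count sant-null stood alone above at 12 of the higher genes and alone below at 19 of the lower genes. Those 12 include AT2G07638, AT2G07659, AT2G07706, AT2G07725, AT2G07727 and ABCI4, all from 3 to 4 Mb of chromosome 2. Many values in that window are uncertain, as described below.

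**Figure D3:**
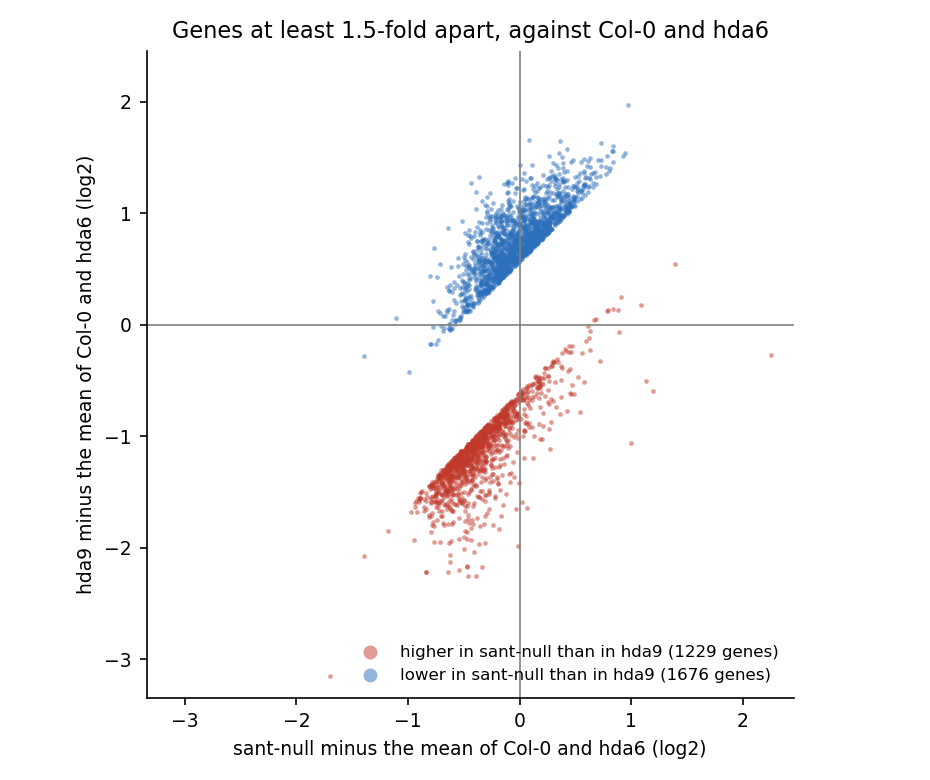
Each point is a gene at least 1.5-fold apart between sant-null and hda9, with the log2 distance of sant-null (horizontal) and of hda9 (vertical) from the mean of Col-0 and hda6, each genotype centred on its own median. Higher genes (red) lie mostly below 0 on the hda9 axis and lower genes (blue) mostly above it, in both cases nearer to 0 on the sant-null axis, and UBQ1 is the point furthest to the right, at 2.26 for sant-null and -0.27 for hda9.

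Most of the 12 genes with the highest ratios were strongly marked in all 4 genotypes, and least so in hda9. DIC2, a mitochondrial dicarboxylate carrier, had 237 RPKM in sant-null, 70.6 RPKM in hda9, 237 RPKM in hda6 and 288 RPKM in Col-0. STZ, a zinc finger repressor induced by salt and cold and also called ZAT10, had 124 RPKM in sant-null, 37.9 RPKM in hda9, 134 RPKM in hda6 and 132 RPKM in Col-0. In both genes hda9 was the low genotype and the other 3 were close together. Relative to the median gene, DIC2 was 3.68-fold higher in sant-null than in hda9 (95% interval 3.51 to 3.86) and STZ was 3.61-fold higher (3.39 to 3.85). RAV2, an AP2/B3 repressor of flowering also called TEM2, had 94.8 RPKM in sant-null, 32.7 RPKM in hda9, 92.1 RPKM in hda6 and 89.2 RPKM in Col-0. ERF4, an ethylene response factor with a repressor motif, had 161 RPKM in sant-null, 58.8 RPKM in hda9, 194 RPKM in hda6 and 233 RPKM in Col-0. CAF1a, a subunit of the deadenylase that shortens mRNA tails, had 113 RPKM in sant-null, 39.6 RPKM in hda9, 127 RPKM in hda6 and 127 RPKM in Col-0. The hda9 value was the lowest of the 4 in each of these 3 genes as well.

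PHI-1, a phosphate-induced gene, and BCB, a blue copper-binding protein, were placed differently among the genotypes. PHI-1 had 77.9 RPKM in sant-null, 21.2 RPKM in hda9, 84.4 RPKM in hda6 and 51.8 RPKM in Col-0. BCB had 60.2 RPKM in sant-null, 19.6 RPKM in hda9, 55.9 RPKM in hda6 and 41.7 RPKM in Col-0. In both, Col-0 lay between hda9 and the other mutants. The cold-inducible SRC2 had 160 RPKM in sant-null against 53.1 RPKM in hda9, the basal resistance gene HSPRO2 had 141 RPKM against 49.2 RPKM, and the dehydrin COR47 had 41.2 RPKM against 14.1 RPKM. On the centred log2 scale the 12 highest named genes ran from 2.51 (UBQ1) to 1.56 (ERF4).

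UBQ1 and LBD22 were high in sant-null alone. UBQ1, which encodes ubiquitin fused to a ribosomal protein, lies at chr3:19505379-19506932 (TAIR10) and had 40.9 RPKM in sant-null, 6.97 RPKM in hda9, 8.45 RPKM in hda6 and 4.77 RPKM in Col-0. These values rest on 762 reads in sant-null and 420 reads in hda9. Its ratio was 6.44-fold that of the median gene (5.71 to 7.27), and after the trend with the Col-0 level was removed it was still 2.60 on the log2 scale. The neighbouring genes did not share it: AT3G52580 had 4.85 RPKM in sant-null and 6.98 RPKM in hda9, and CWINV2, a cell wall invertase, had 14.8 RPKM in sant-null and 12.3 RPKM in hda9. UBQ1 overlaps CWINV2 at its end, and reads there cannot be told apart. Ubiquitin genes are close copies of each other, so reads of UBQ1 could be divided among them in ways the tables do not show. LBD22, a LOB-domain gene at chr3:4559619-4561020, had 31.7 RPKM in sant-null, 10.6 RPKM in hda9, 12.5 RPKM in hda6 and 10.7 RPKM in Col-0, a 3.30-fold ratio (2.93 to 3.72). Its neighbour U6-26, a gene of the spliceosomal U6 small nuclear RNA, had 21.5 RPKM in sant-null and 24.5 RPKM in hda9 on 26 and 96 reads. Without input values, more DNA and more Khib in sant-null cannot be told apart at UBQ1 or LBD22.

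In a pair of further genes without a symbol, outside the rule for named genes and picked after their values were seen, sant-null was again the highest genotype. AT4G04565, annotated as a long non-coding RNA, had 38.7 RPKM in sant-null, 9.45 RPKM in hda9, 15.0 RPKM in hda6 and 16.5 RPKM in Col-0. AT5G53905 had 43.9 RPKM in sant-null, 13.2 RPKM in hda9, 15.9 RPKM in hda6 and 15.1 RPKM in Col-0. It overlaps U3B, a gene of the small nucleolar RNA U3 that is too short for the comparison. U3B had 103 RPKM in sant-null, 11.3 RPKM in hda9, 17.0 RPKM in hda6 and 17.84 RPKM in Col-0, which is 10.01-fold the ratio of the median gene (8.78 to 11.4) on 866 reads in sant-null and 307 reads in hda9. Reads of overlapping genes could not be separated. More DNA and more Khib in sant-null cannot be told apart at AT4G04565, AT5G53905 or U3B either. Among the other genes with sant-null alone above were PBP1 (AT5G54490), a calcium-binding partner of the kinase PINOID, with 17.1 RPKM in sant-null, 9.25 RPKM in hda9, 7.08 RPKM in hda6 and 7.37 RPKM in Col-0, and PUB22, a ubiquitin ligase of immune signalling, with 21.2 RPKM in sant-null, 14.8 RPKM in hda9, 12.5 RPKM in hda6 and 9.29 RPKM in Col-0.

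The genes with the lowest ratios had low values, with the highest in hda9. Without input, Khib and background cannot be told apart at such low values. LSM1A, a subunit of the mRNA decapping activator, had 1.06 RPKM in sant-null, 5.78 RPKM in hda9, 0.856 RPKM in hda6 and 1.80 RPKM in Col-0. That is 16 reads in sant-null and 281 reads in hda9, and 0.202 times the ratio of the median gene (0.114 to 0.334). PPT2, a phosphoenolpyruvate carrier of plastids, had 1.18 RPKM in sant-null, 5.54 RPKM in hda9, 1.92 RPKM in hda6 and 1.36 RPKM in Col-0. NRPD4, a subunit of RNA polymerases IV and V in RNA-directed DNA methylation, had 2.02 RPKM in sant-null, 6.67 RPKM in hda9, 1.16 RPKM in hda6 and 1.60 RPKM in Col-0. HSFA6A, a heat shock factor, had 2.06 RPKM in sant-null, 6.82 RPKM in hda9, 1.84 RPKM in hda6 and 1.71 RPKM in Col-0. In all 4 genes hda9 stood above the rest. The other 8 of the 12 lowest were ERD2B, PnsL1, ATMND1, LEW1, IWS2, NAC095, RPA70B and MYB98, among them a synergid regulator (MYB98), a meiotic recombination factor (ATMND1) and a replication protein (RPA70B). Their centred log2 ratios lay between -1.40 (ERD2B) and -1.24 (MYB98), with 26 (NAC095) to 54 (RPA70B) reads in sant-null and 283 (NAC095) to 638 (RPA70B) reads in hda9. The minimum of 1 RPKM bears on this end of the list: of 526 genes long enough but dropped as too low, 333 were under it only in sant-null and 3 only in hda9.

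**Figure D4:**
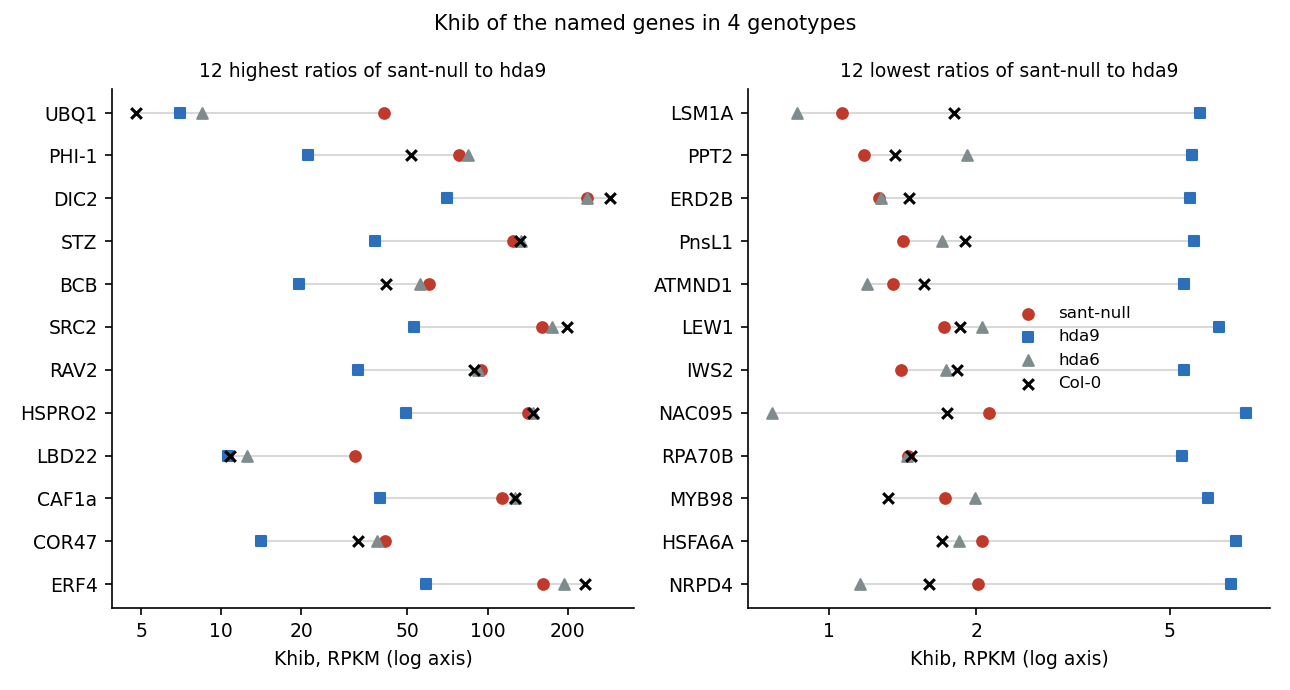
RPKM of the 12 genes with the highest (left) and the 12 with the lowest (right) ratio of sant-null to hda9, on log axes, with sant-null as circles, hda9 as squares, hda6 as triangles and Col-0 as crosses. In most genes the square stands alone, below the rest on the left and above them on the right; in UBQ1 and LBD22 the circle stands alone.

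LigB stood out among low genes in the opposite way to LSM1A, because sant-null alone was low. It had 2.26 RPKM in sant-null, 7.07 RPKM in hda9, 5.46 RPKM in hda6 and 4.45 RPKM in Col-0, and it was at -1.05 after the trend with the Col-0 level was removed. TRB3, a telomere-repeat-binding protein, had 2.41 RPKM in sant-null, 4.82 RPKM in hda9, 5.06 RPKM in hda6 and 3.16 RPKM in Col-0. SWC2, a subunit of the SWR1 complex that deposits H2A.Z, had 2.13 RPKM in sant-null, 4.29 RPKM in hda9, 3.63 RPKM in hda6 and 3.496 RPKM in Col-0. These genes rest on few sant-null reads, 38 for LigB against 384 reads in hda9.

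Removing the trend with the mean level of both mutants brought up other genes. GRP3S, a glycine-rich protein gene, had 13.7 RPKM in sant-null, 5.45 RPKM in hda9, 15.69 RPKM in hda6 and 15.5 RPKM in Col-0, and reached 1.31 after the removal. HMGB5, a high-mobility-group chromatin protein, had 5.77 RPKM in sant-null, 3.62 RPKM in hda9, 4.43 RPKM in hda6 and 2.25 RPKM in Col-0, and reached 1.04. AGP41, MSP2, EXGT-A3 and ELP lay between 1.11 (AGP41) and 0.90 (ELP). At the other end AGL76, a MADS-box gene, had 3.53 RPKM in sant-null, 10.02 RPKM in hda9, 1.24 RPKM in hda6 and 3.30 RPKM in Col-0, and lay at -0.94. EXT13, a cell wall extensin, lay at -0.90 and SEC10, an exocyst subunit, at -0.73, although both were under 1.5-fold before the removal, with -0.40 (EXT13) and -0.29 (SEC10).

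The loci of the deacetylases themselves were read next. HDA6 had 11.7 RPKM in sant-null, 10.9 RPKM in hda9, 12.0 RPKM in hda6 and 11.8 RPKM in Col-0, so its Khib was nearly level across genotypes. HDA9 had 2.89 RPKM in sant-null, 6.10 RPKM in hda9, 2.50 RPKM in hda6 and 2.33 RPKM in Col-0, a centred log2 ratio of -0.75. HOS15, a WD40 partner of HDA9, had 2.77 RPKM in sant-null against 5.51 RPKM in hda9, a ratio of -0.67. Of 16 genes for deacetylases and their partners, these 2 were lower (12.5%, against 7.3% of all genes) and none was higher (against 5.36%), with a median of -0.06. With the Col-0 trend removed HDA9 was at -0.30 and HOS15 at -0.08, and none of the 16 genes was called. Of 12 acetyltransferase genes, HAC2 alone was called (8.33% lower), with 4.68 RPKM in sant-null and 8.66 RPKM in hda9, and the median was -0.01. HAC2 was at -0.33 with the Col-0 trend removed, and none of the 12 was called then.

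Since the labels do not name the loci of the quadruple mutants, 4 genes that may be the SANT loci were read as candidates, and they check no label. AT1G09040 had 0.561 RPKM in sant-null, 10.05 RPKM in hda9, 6.41 RPKM in hda6 and 4.94 RPKM in Col-0, from 28 reads in sant-null and 1619 reads in hda9. It was under 1 RPKM in sant-null and so was left out of the 22945 genes. The 10 nearest genes in the comparison held medians of 10.99 RPKM (sant-null) and 10.93 RPKM (hda9). Its neighbour AT1G09050 had 32.4 RPKM in sant-null, 39.3 RPKM in hda9, 30.3 RPKM in hda6 and 19.4 RPKM in Col-0. AT1G55050 had 31.8 RPKM in sant-null, 12.3 RPKM in hda9, 63.0 RPKM in hda6 and 125 RPKM in Col-0, so both mutants lay far under the wild type and hda9 further. AT2G47820 had 118 RPKM in sant-null, 71.2 RPKM in hda9, 34.0 RPKM in hda6 and 40.2 RPKM in Col-0, and its centred ratio of 0.84 turned to -0.46 under quantile normalization. Without input values, missing DNA and missing Khib cannot be told apart at AT1G09040.

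Photosynthesis genes had the highest share of calls among the lists of at least 8 genes. All 36 genes kept of 38 listed lay above the median gene, 21 of them were at least 1.5-fold higher in sant-null than in hda9 (58.3%, against 5.36% of all genes) and none was lower. Their median log2 ratio was 0.67, against 0 over all genes. CAB1, a light-harvesting chlorophyll protein of photosystem II, had 92.4 RPKM in sant-null, 35.1 RPKM in hda9, 104 RPKM in hda6 and 139 RPKM in Col-0. Its relatives LHB1B2, with 99.4 RPKM in sant-null and 41.7 RPKM in hda9, and LHB1B1, with 61.3 RPKM in sant-null and 26.4 RPKM in hda9, lay in the same place. The small-subunit genes of Rubisco were lower and less divided, with 16.6 RPKM in sant-null and 13.1 RPKM in hda9 for RBCS1A and 12.4 RPKM in sant-null and 12.7 RPKM in hda9 for RBCS2B. The list had a median of 23.4 RPKM in Col-0, within the highest decile of genes, where 40.0% were called. With the trend over the Col-0 level removed its median was 0.14 and only CAB1 and LHB1B2 of its 36 genes were called higher.

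Ethylene response factors came next by share among these lists. Of 20 genes named ERF, 11 were higher in sant-null than in hda9 (55%, against 5.36% of all genes) and none was lower (against 7.3%), with a median of 0.67. Their median of 24.5 RPKM in Col-0 also lay in the highest decile, where 40.0% of genes were called higher. The family was taken by symbol and so holds ERF1-1, ERF1-2 and ERF1-3, which are translation release factors, and none of the 3 was called. Besides ERF4, the largest ratios were those of ERF11, with 34.0 RPKM in sant-null and 15.2 RPKM in hda9, ERF104, with 38.6 RPKM in sant-null and 17.9 RPKM in hda9, and ERF2, with 34.5 RPKM in sant-null and 17.7 RPKM in hda9. ERF104 was lower in Col-0 (25.6 RPKM) and in hda6 (31.6 RPKM) than in sant-null, unlike ERF4. With the Col-0 trend removed the median was 0.14 and ERF4, ERF11 and ERF104 were called.

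Genes of abscisic acid, cold and dehydration followed the same direction. Of 33 genes, 9 were higher (27.3%, against 5.36% of all genes) and none was lower (against 7.3%), with a median of 0.33. ERD10, a dehydrin, had 52.3 RPKM in sant-null, 21.5 RPKM in hda9, 35.7 RPKM in hda6 and 36.9 RPKM in Col-0. CBF1, a master regulator of cold acclimation, had 55.1 RPKM in sant-null, 24.3 RPKM in hda9, 54.0 RPKM in hda6 and 75.7 RPKM in Col-0. In RPKM not centred per genotype, COR47 and ERD10 were highest in sant-null of the 4 genotypes, and CBF1 was highest in Col-0. The median gene differed as well, with 7.94 RPKM in sant-null, 7.33 RPKM in hda6 and 5.82 RPKM in Col-0. The COR47 values of 41.2 RPKM in sant-null, 38.5 RPKM in hda6 and 32.7 RPKM in Col-0 therefore do not set sant-null apart. The regulators ABI5, with 13.5 RPKM in sant-null and 10.6 RPKM in hda9, and ABI1, with 18.1 RPKM in sant-null and 15.0 RPKM in hda9, were under 1.5-fold. With the Col-0 trend removed the median was 0.02, and STZ, COR47 and ERD10 were called higher.

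The calls among jasmonate and immunity genes were all higher ones. Of 20 jasmonate genes 5 were higher (25%, against 5.36% of all genes) and none was lower (against 7.3%), with a median of 0.25. MYC2, the central activator of jasmonate responses, had 43.0 RPKM in sant-null and 22.6 RPKM in hda9, and JAZ1, a repressor of MYC2, had 22.5 RPKM in sant-null and 13.6 RPKM in hda9. JAZ1 had only 15.0 RPKM in hda6 and 10.2 RPKM in Col-0, and its ratio was 0.60 with the Col-0 trend removed. Of 32 immunity genes 6 were higher (18.8%) and none was lower, with a median of 0.10 that became -0.02 without centring. WRKY40, a repressor of basal defence, had 38.8 RPKM in sant-null, 16.6 RPKM in hda9, 41.1 RPKM in hda6 and 35.4 RPKM in Col-0. The salicylic acid pathway genes EDS1, with 7.09 RPKM in sant-null and 9.25 RPKM in hda9, and PAD4, with 9.93 RPKM in sant-null and 8.74 RPKM in hda9, were under 1.5-fold.

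Heat-response genes were read beside the 5.36% of all genes called higher and the 7.3% called lower. Of 21 heat shock factors HSFC1 and HSF4 were higher (9.52%), HSFA6A was lower (4.76%) and the median was 0.16. HSFC1 had 28.7 RPKM in sant-null and 17.3 RPKM in hda9, and HSF4 had 19.5 RPKM in sant-null and 13.2 RPKM in hda9. HSFA2, the factor most tied to heat memory, had 7.45 RPKM in sant-null, 7.68 RPKM in hda9, 7.29 RPKM in hda6 and 5.53 RPKM in Col-0. None of 20 HSP90, HSP70 and HSP100 chaperone genes and none of 4 small heat shock protein genes was called, with medians of 0.06 and 0.14. Of 17 small heat shock protein genes listed, 6 were too short and 7 were set aside because their names did not match the reference table. Of 20 effectors of heat tolerance 1 was called each way (5%): DREB2A was higher, with 22.4 RPKM in sant-null and 14.6 RPKM in hda9, and the peptidyl-prolyl isomerase gene AT5G48570 was lower, with 4.38 RPKM in sant-null and 7.83 RPKM in hda9.

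Of 28 flowering genes 2 were higher (7.14%, against 5.36% of all genes) and none was lower (against 7.3%). These were the repressors RAV2 and TEM1, with 59.4 RPKM in sant-null, 24.4 RPKM in hda9, 68.9 RPKM in hda6 and 66.7 RPKM in Col-0 for TEM1. The list's median was 0.04, and 10 of its genes lay below the median gene. FLC, the vernalization-controlled repressor, had 3.74 RPKM in sant-null, 3.91 RPKM in hda9, 3.15 RPKM in hda6 and 3.56 RPKM in Col-0. FT, the mobile flowering signal, had 3.33 RPKM in sant-null, 3.08 RPKM in hda9, 3.9998 RPKM in hda6 and 4.38 RPKM in Col-0. With the Col-0 trend removed the list's median was 0.18, and AGL31 (0.80) and MAF1 (0.61), both relatives of FLC, were called higher beside RAV2 and TEM1. For floral organ identity genes the median over 10 genes was -0.19 as centred, with only PI called (1.08 RPKM in sant-null and 2.48 RPKM in hda9), but 0.35 with the Col-0 trend removed, 0.34 with the mean-level trend removed and 0.29 under quantile normalization.

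**Figure D5:**
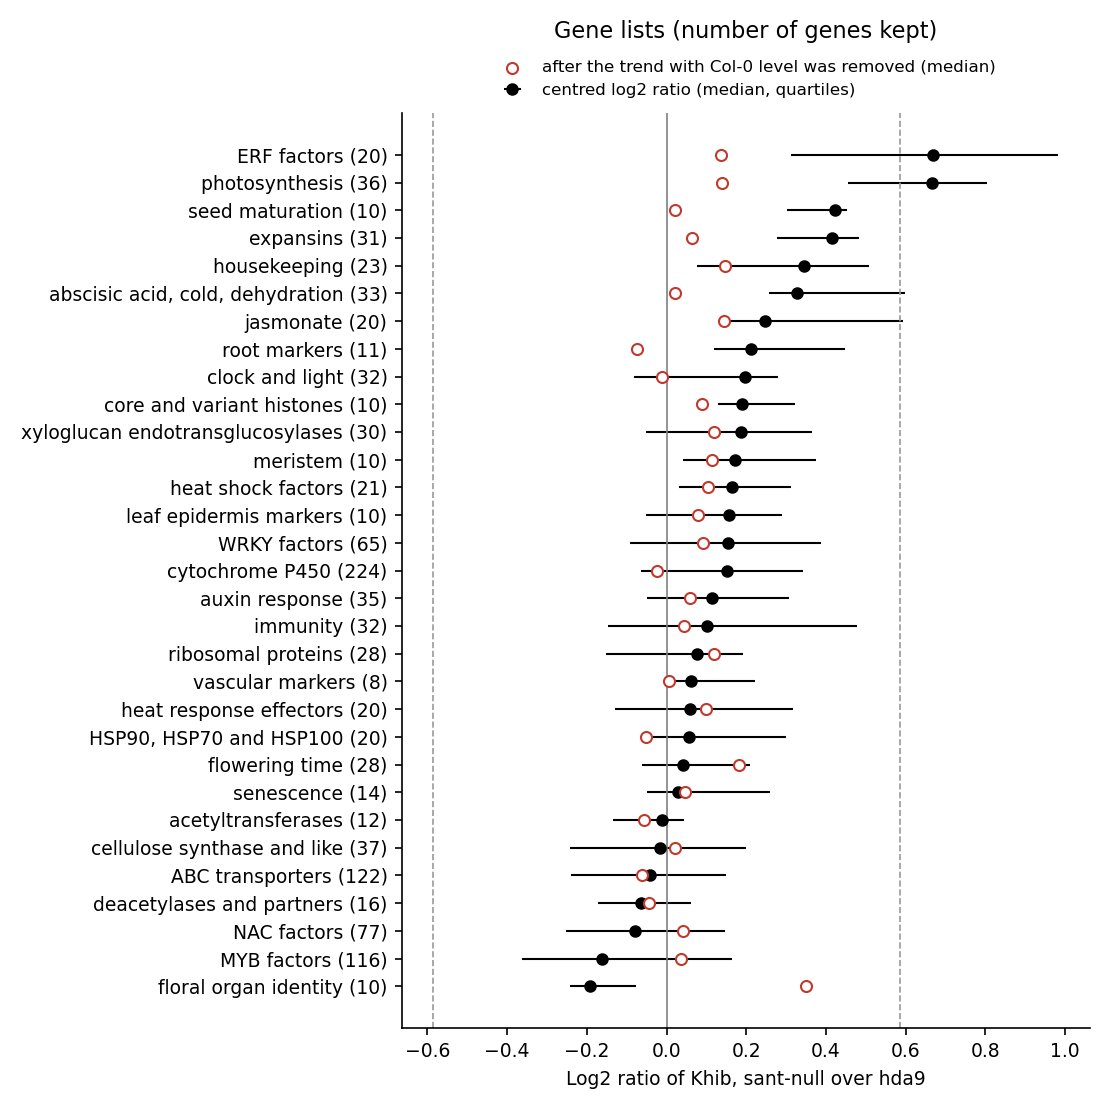
Median centred log2 ratio of sant-null over hda9 in each gene list reported here with at least 8 kept genes (filled, with quartiles as bars) and the median after the trend with the Col-0 level was removed (open); the dashed lines are at 1.5-fold. ERF and photosynthesis genes lie furthest to the right at 0.67 and drop to 0.14 once the trend is removed, while floral organ genes go from -0.19 to 0.35.

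Large transcription factor families held calls in both directions, read beside 5.36% higher and 7.3% lower over all genes. Of 116 MYB genes 15 were lower (12.9%) and 6 were higher (5.17%), and their median of -0.16 became 0.04 with either trend removed and 0.01 under quantile normalization. The stress-linked MYB77, with 36.1 RPKM in sant-null and 17.1 RPKM in hda9, and MYB73, with 35.8 RPKM in hda9 and a ratio of 1.17, stood at 1 end, although MYB73 was at -0.06 under quantile normalization. MYB37, a regulator of axillary meristems, stood at the other end, with 1.46 RPKM in sant-null and 5.11 RPKM in hda9. Of 65 WRKY genes 8 were higher (12.3%) and 3 lower (4.62%), with a median of 0.15, and of 77 NAC genes 1 was higher (1.30%) and 3 lower (3.90%), with a median of -0.08.

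Metabolic and cell wall families were read beside the 5.36% of all genes called higher and the 7.3% called lower. Of 224 cytochrome P450 genes 21 were higher (9.38%) and 6 lower (2.68%), and the median of 0.15 became -0.02 with the Col-0 trend removed, -0.03 with the mean-level trend removed and -0.04 under quantile normalization. CYP94B3, which oxidizes jasmonoyl-isoleucine, had 35.3 RPKM in sant-null and 18.16 RPKM in hda9. Of 31 expansin genes 29 lay above the median gene and 3 were called higher (9.68%), with a median of 0.42 that was 0.06 with the Col-0 trend removed. EXPA5 had 12.1 RPKM in sant-null and 7.74 RPKM in hda9. None of 37 cellulose synthase and related genes was called, and of 122 ABC transporter genes 1 was higher (0.820%) and 3 were lower (2.46%). Of 30 xyloglucan endotransglucosylase genes 2 were higher (6.67%).

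Auxin genes held 2 calls among 35, both lower (5.71%, against 7.3% of all genes): IAA1, with 2.89 RPKM in sant-null and 7.58 RPKM in hda9, and SHY2, with 1.24 RPKM in sant-null and 3.73 RPKM in hda9, both repressors of auxin response. Their list median of 0.11 became -0.01 without centring. Of 32 clock and light genes PIL6 and FKF1 were higher (6.25%, against 5.36% of all genes) and PRR3 was lower (3.13%, against 7.3%), and the median of 0.20 became -0.01 with the Col-0 trend removed. Of 23 housekeeping genes 4 were higher (17.39%) and none was lower: UBQ1, UBQ11, UBQ10 and the elongation factor gene AT5G60390. UBQ10, a polyubiquitin gene often used as a reference, had 82.8 RPKM in sant-null, 38.5 RPKM in hda9, 102 RPKM in hda6 and 76.6 RPKM in Col-0, but its ratio was -0.07 under quantile normalization.

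Markers of cell types other than mesophyll were read next. None of 11 root marker genes was called, and their median of 0.21 became -0.07 with the Col-0 trend removed. Neither was any of 10 shoot meristem genes (median 0.17) or 10 seed maturation genes (median 0.42). Of 10 leaf epidermis genes 1 was called each way (10% of the list, against 5.36% and 7.3% of all genes): TMM was higher, with 24.8 RPKM in sant-null and 16.7 RPKM in hda9, and KAT1 was lower, with 3.25 RPKM in sant-null and 5.96 RPKM in hda9. Of 8 vascular genes 1 was higher (12.5%) and none was lower: SUC2, a sucrose carrier of companion cells, with 21.5 RPKM in sant-null and 14.3 RPKM in hda9. Over the marker lists the median member ranged from 2.51 RPKM in sant-null and 3.19 RPKM in hda9 for floral organs to 22.7 RPKM in sant-null and 15.3 RPKM in hda9 for photosynthesis, the list of mesophyll cells. No expression values enter here, so differences in tissue makeup between the mutants were not tested.

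Called genes were spread over all chromosomes, with 1 window standing out. Chromosome medians of the centred log2 ratio lay between -0.01 and 0.02. Of 114 windows of 1 Mb with at least 20 genes, 112 had medians within 0.2 of 0. A gene higher in sant-null was followed on its chromosome by another such gene in 12.9% of cases, against 5.36% of all genes, and a lower gene by another lower gene in 12.5%, against 7.3%. Overlapping genes share reads, and 6800 of the kept genes overlap another. Neither these nor the window standing out were removed from the shares, and their part in them was not tested. The window standing out ran from 3 to 4 Mb of chromosome 2, with a median of 0.65 over 56 genes. Of these, 32 were higher (57.1%) and 3 were lower (5.36%). This window includes a known large insertion of mitochondrial DNA. Genes of the insertion have near-identical copies in the mitochondrial genome, so their values are uncertain. Which genes of the window lie in it was not marked here, and not all need do so. AT2G07662 had 168 RPKM in sant-null, 73.7 RPKM in hda9, 174 RPKM in hda6 and 124 RPKM in Col-0, and AT2G07795 had 115 RPKM in sant-null, 49.7 RPKM in hda9, 138 RPKM in hda6 and 92.6 RPKM in Col-0. In the same window AT2G08986 went the other way, with 636 RPKM in sant-null, 1372 RPKM in hda9, 389 RPKM in hda6 and 614 RPKM in Col-0, as did AT2G07981, with 263 RPKM in sant-null, 610 RPKM in hda9, 169 RPKM in hda6 and 266 RPKM in Col-0. The lowest window, from 14 to 15 Mb of chromosome 5, had a median of -0.28 over 103 genes, 17 of them lower, and of -0.04 with the Col-0 trend removed.

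Length and kind of gene went with the ratio to a lesser degree. Genes higher in sant-null had a median length of 1696 bp, lower genes 2182 bp and genes called in neither direction 2404 bp. From the shortest to the longest decile of genes the median ratio went down from 0.16 to -0.15, and Spearman's rho with length was -0.21 over genes. Of 310 long non-coding RNA genes, of which 94.8% overlap another gene, 41 were higher (13.2%, against 5.36% of all genes) and 14 lower (4.52%, against 7.3%), with a median of 0.21 that was 0.04 with the Col-0 trend removed.

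Overlap with the authors' enriched islands went with the level of Khib. On chromosomes 3 and 5, where the island positions go with the genes, an island of the sant-null table overlapped 94.3% of the 489 higher genes, 3.27% of the 703 lower genes and 32.2% of the 8665 others by at least 1 bp. An island of the hda9 table overlapped 90.8% of the higher genes, 2.56% of the lower genes and 30.2% of the others. Each island table sets its mutant beside Col-0 and holds read counts of both, so an island there need not be one of the mutant. The Col-0 level also differed between the sets, with medians of 22.6 RPKM at all higher genes and 2.03 RPKM at all lower genes. The islands hold reads of the same Khib libraries, and both tables gave similar shares. They are therefore no separate check of the difference between the mutants. Genes lower in sant-null thus lay outside islands in both tables nearly always, the hda9 table included, although hda9 carried the higher value there.

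The other pairs of mutants give the scale of this difference. Between sant-null and hda9 the centred log2 ratio had a standard deviation of 0.39. It was 0.59 for hda6 over hda9, where 16.5% of 22879 genes were at least 1.5-fold higher and 16.8% lower, and 0.33 for sant-null over hda6, where 5.18% of 22761 genes were higher and 1.86% lower. These pairs share their tables with the first, so their values are given side by side only. By this measure sant-null lay between hda6 and hda9, and nearer to hda6.

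Nearest to the limits of the comparison lay AT1G07645, just inside with 1000 bp, and AT5G51720, just outside with 999 bp. AT1G74890 was kept with 1.00 RPKM in sant-null and AT2G29530 was left out with 0.997 RPKM in sant-null. AT2G24615 was kept with 1.01 RPKM in hda9 and AT4G17670 was left out with 0.942 RPKM in hda9. At the fold limits AT3G11100, with 11.6 RPKM in sant-null and 8.14 RPKM in hda9, was just called higher, and AT1G63990, with 3.05 RPKM in sant-null and 5.597 RPKM in hda9, was just called lower.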

How the data were processed

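Khib ChIP-seq of seedlings was read from gene and island tables of the series. Bowtie2 2.2.5, bedtools, SICER 1.0.3 and CASAVA appear in the submitters' processing notes beside the TAIR10 build, without their roles. The authors deposited RPKM values, 1 per gene and genotype. How replicates or input entered these values was not given in the sources used here. Multiplied by gene length, 100% of values were whole reads to within 0.01 reads. For each island the authors deposited a read count, RPM values scaled to library totals, a fold or ratio of normalized counts, and a p-value with its FDR, per the file headers. Only island positions on chromosomes 3 and 5 were used, because islands on the other chromosomes did not follow their genes.

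The gene tables were joined on GeneID (pandas 2.3.3, numpy 2.4.6, Python 3.11.15). With no value per library there was no test: log2 ratios of (RPKM + 1), centred on the median, were counted at 1.5-fold. This scale understates folds of low genes. Folds with intervals are RPKM ratios over that of the median gene, with exact Clopper-Pearson 95% intervals (scipy 1.17.1) from the recovered reads, for counting error alone, since reads are not independent molecules. Trends were running medians over 1001 genes. The steps were tested on simulated data.

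Gene names came from a RefSeq table, used for names only, in which 9575 of the kept genes had a symbol. Of the kept genes, 6800 overlap another gene. Named genes were protein-coding genes with a symbol and at least 5 RPKM in either mutant: the 12 highest and 12 lowest ratios, the 6 highest and 6 lowest with the mean-level trend removed, up to 4 per list with the largest absolute ratio, and HDA6, HDA9 and the possible SANT loci. Further members were named from lists as examples, after their values were seen. The members and lists were chosen with earlier results of these data known. Alternatives were other pseudocounts, minima, lengths, scalings, a 2-fold limit, protein-coding genes only and genes without overlaps. The result of 1 gene family is not reported here.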

Additional observations from a re-analysis of the deposited data

How the results depend on the processing

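The main counts were 1229 genes higher and 1676 lower in sant-null than in hda9. Counts beyond 1.5 times these came with no minimum length (2152 and 3118, from more genes), at least 2000 bp (512 and 757, from fewer genes), no centring (638 and 2690), quantile normalization (472 and 358), the mean-level trend removed (549 and 236), the Col-0 trend removed (268 and 171) and a 2-fold limit (153 and 256). Beyond the construction of these settings the cause was not tested. Pseudocounts of 0.5 (1405 and 2132) and 0.1 (1560 and 2475), no minimum RPKM (1273 and 1895), at least 2 RPKM (1156 and 1264), protein-coding genes (1202 and 1636), genes without overlaps (918 and 1236) and leaving out the window on chromosome 2 (1200 and 1665) stayed within 1.5 times, and the last pair of settings was chosen after seeing the data. Signs turned as follows. The histone list went to -0.67 at 2000 bp. Without centring, auxin went to -0.0059 and immunity to -0.019. Under quantile normalization MYB went to 0.011, cytochrome P450 to -0.036, floral organ to 0.29, the SANT candidates and AT2G47820 to -0.46, AT4G05320 (UBQ10) to -0.071 and AT4G37260 (MYB73) to -0.056. With the mean-level trend removed MYB went to 0.037, cytochrome P450 to -0.027 and floral organ to 0.34. With the Col-0 trend removed MYB went to 0.036, clock to -0.012, cytochrome P450 to -0.024, floral organ to 0.35, root markers to -0.075 and AT2G37300 (ABCI16) to 0.018. Depth limits low genes most, where sant-null has the fewest reads. No paired analysis was possible because the tables hold 1 value per genotype, and leaving out a replicate was not possible for the same reason.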

Other observations

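Ribosomal DNA had some of the highest RPKM values. The rRNA gene AT3G41768 had 6019 RPKM in sant-null, 3983 RPKM in hda9, 5750.5 RPKM in hda6 and 9075 RPKM in Col-0. The rRNA gene AT2G01010 had 611 RPKM in sant-null, 459 RPKM in hda9, 720.3 RPKM in hda6 and 1214 RPKM in Col-0. AT3G41768 was called higher, AT2G01010 was not, and their many near-identical copies make these values uncertain. Without input values, more copies and more Khib cannot be told apart there. Genes under DNA methylation control lay near the median gene, with none of 6 called (against 5.36% higher and 7.3% lower over all genes): SDC had 11.8 RPKM in sant-null and 10.2 RPKM in hda9, and FWA had 7.88 RPKM in sant-null and 8.19 RPKM in hda9. Of 14 senescence genes SEN1 (AT4G35770), a dark-induced gene, was called higher (7.14%), with 16.9 RPKM in sant-null, 10.9 RPKM in hda9, 16.5 RPKM in hda6 and 8.98 RPKM in Col-0. Of 28 genes with ribosomal protein names RPL24 was lower (3.57%), with 3.30 RPKM in sant-null and 6.54 RPKM in hda9. Of 10 histone genes HTR12, which encodes the centromeric histone H3, was lower (10%), with 2.67 RPKM in sant-null and 5.55 RPKM in hda9.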
